A study of Mus musculus with 8 samples.

Results

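The intercalated disc is the end-to-end contact between heart muscle cells, and the 10 genes described here code for its junction proteins: the connexins Gja1 and Gja5, the adherens junction genes Cdh2 and Ctnna3, the scaffold Tjp1, and the desmosome genes Dsp, Pkp2, Jup, Dsg2 and Dsc2. They were listed by name, and all 10 had a locus of their own among the 35299 loci of the deposited table. All 10 passed the filter on low signal, which 19186 loci passed in total. The libraries came from border zone tissue of C57BL/6J mice 12 weeks old, 2 weeks after surgery, with 4 animals after myocardial infarction (MI) and 4 after a sham operation (Sham). RNA with a poly(A) tail was sequenced as long RNA, and the comparison asks which transcripts differ between infarcted and sham hearts. Groups follow the sample titles and the recorded treatment. The source field names Sham for the MI samples too, the descriptions name a sham infarct for MI replicates 1 to 3 and an infarct for Sham replicate 4, and only the Sham titles carry a remark on reanalysis, so that the origin of the libraries and the infarct cannot be told apart.

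Desmosomes and adherens junctions hold neighbouring heart muscle cells together under load, by cadherins that meet in the gap between the cells and by plaque proteins that tie them to intermediate filaments or to actin. Gap junctions are channels of connexin proteins that pass the electrical impulse from cell to cell. In the mouse heart Gja1 codes for the main connexin of working ventricular muscle, whereas Gja5 codes for a connexin of atrial muscle, the His-Purkinje system and arterial endothelium. Loss or displacement of the ventricular connexin at the infarct border zone, and mutations of desmosome genes in arrhythmogenic cardiomyopathy, are well known.

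The libraries held 108 to 190.2 M reads in loci, and mitochondrial transcripts took 23.8 to 26.1% of the reads in MI and 29.2 to 32.3% in Sham. The least covered of the 10 genes, Gja5, still had 661 reads or more in every library, so depth did not limit their detection. Heart muscle identity was clear, as myoglobin (Mb) and the ventricular light chain gene Myl2 were among the most abundant markers in all 8 libraries. Of 10 measured cardiomyocyte markers 6 were lower and 0 higher in MI, while all 8 fibroblast and all 6 measured macrophage markers were higher, as were 6 of 7 epicardial and mesothelial markers, most of all in MI replicate 3, and 3 of 7 smooth muscle and pericyte markers. In such tissue samples fewer cells of a type and less RNA per cell cannot be told apart.

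Among the junction genes 1 was higher in MI (Gja5) and 3 were lower (Dsg2, Ctnna3 and Dsc2) at an adjusted p under 0.05 in limma, and 6 did not pass. Over all tested loci 20.8% were called higher and 20.1% lower, so the counts among 10 genes lie near the background and say nothing particular about junctions. No MI library reached the Sham range for Gja5, which was higher, and for Dsg2 and Ctnna3, which were lower; such a gap was found in 19.7% of all tested loci for higher and 20% for lower signal in MI. The median log2 difference was -0.10 over the 10 genes and -0.02 over all tested loci. Signal below is in normalised reads, that is, reads divided by a size factor per library, and every log2 difference is MI minus Sham on log2(signal + 1), with its standard error.

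**Figure D1:**
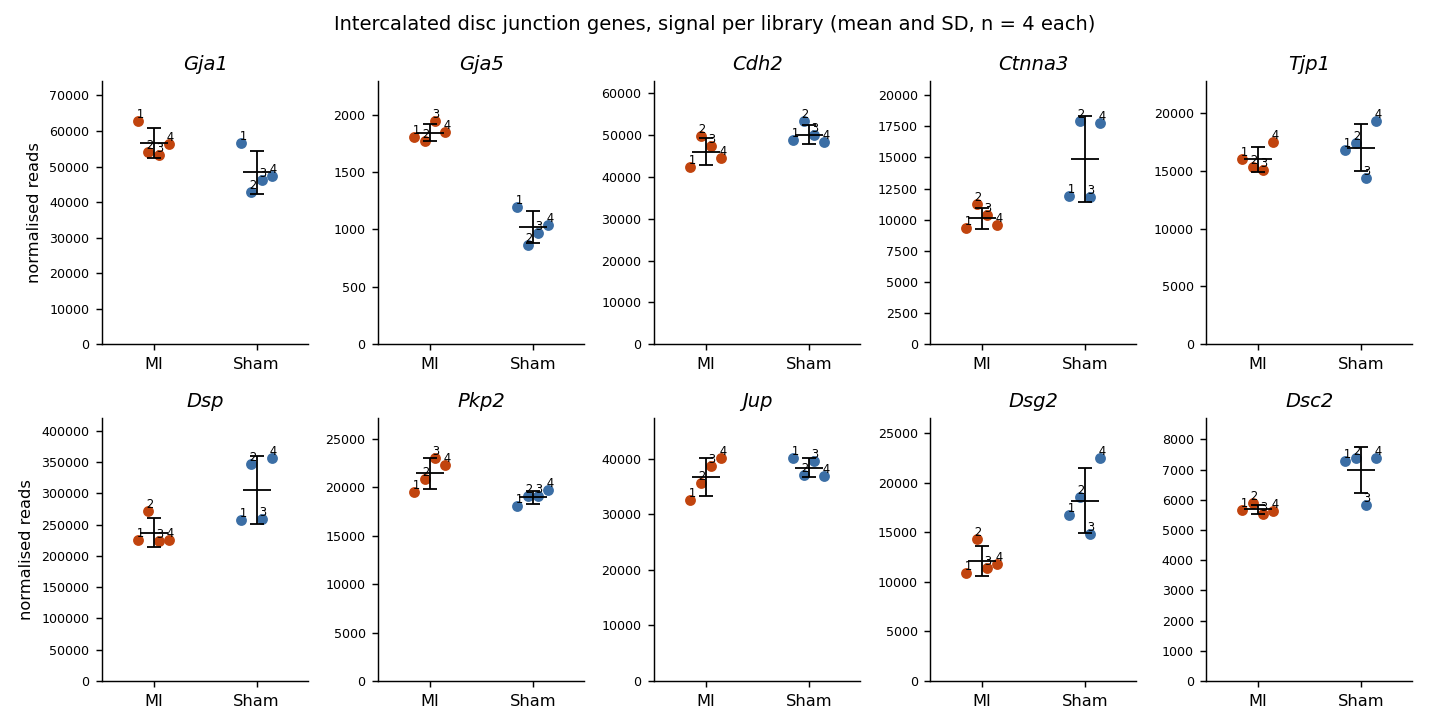
Normalised signal (y axis, normalised reads) of the 10 junction genes in the MI libraries (left, orange) and the Sham libraries (right, blue). Points are libraries with their replicate number, and bars are mean and SD of n = 4. Gja5 lies higher in all 4 MI libraries, Dsg2 and Ctnna3 lie lower in all 4, and for Dsp and Ctnna3 Sham 2 and 4 stand above Sham 1 and 3.

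The largest change among the junction genes was in Gja5. Its locus lies at chr3:96836339-96857557 on the plus strand of mm9, with 3 exons in the longest transcript. Its signal was 1803, 1770, 1943 and 1851 in MI replicates 1 to 4, against 1198, 864, 969 and 1042 in Sham replicates 1 to 4. The lowest MI library lay above the highest Sham library, and the MI libraries were close to each other. The means were 1842 ± 75.2 in MI and 1018 ± 140 in Sham (SD, n = 4 each), 1.81 times higher in MI, with a log2 difference of 0.86 ± 0.10 (limma adjusted p = 1.24e-04). Gja5 stayed called under all 19 alternatives tried.

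Gja1, the main ventricular connexin gene (chr10:56095759-56112259, plus strand, mm9), had a signal of 62757, 54197, 53212 and 56202 in MI and 56757, 42759, 46301 and 47466 in Sham. The groups overlapped through Sham replicate 1, and the log2 difference of 0.23 ± 0.10 did not pass (limma adjusted p = 0.0749); without Sham replicate 1 it was 0.31 (limma adjusted p = 0.0186). No fall of Gja1 RNA was measured in these libraries. What the RNA level says of the protein, or of its place in the cell, was not measured.

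The bases upstream of both connexin genes are shown because both code for gap junction proteins, and Gja5 was called higher while Gja1 was not. Their ratio, given below, did not pass after adjustment. Beside the connexin windows stands that of Ctnna3, the lower gene whose upstream window could be printed. Of the 10 genes 6 had an entry in the RefSeq promoter table (GRCm38.p6, another build than the loci). The windows are the 250 bases before the RefSeq start, at chr3:97032152-97032401, chr10:56377050-56377299 and, for the first of 3 listed starts of Ctnna3, chr10:63429848-63430097, all on the plus strand and with 0 bases of annotated exons of these genes. Capitals mark matches on either strand to 8 motifs: TATAAA for the core promoter, CCAAT for NF-Y, GGGCGG for the GC box, AGGTGT for T-box factors, AGATAA for GATA factors, TNAAGTG for NKX2-5, CATTCC for TEAD factors and TGACTCA for AP-1.
Gja5: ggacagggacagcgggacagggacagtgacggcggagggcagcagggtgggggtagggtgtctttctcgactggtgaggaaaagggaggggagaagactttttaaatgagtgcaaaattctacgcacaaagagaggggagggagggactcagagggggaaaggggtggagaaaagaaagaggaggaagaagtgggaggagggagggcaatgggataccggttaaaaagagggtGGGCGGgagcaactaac
Gja1: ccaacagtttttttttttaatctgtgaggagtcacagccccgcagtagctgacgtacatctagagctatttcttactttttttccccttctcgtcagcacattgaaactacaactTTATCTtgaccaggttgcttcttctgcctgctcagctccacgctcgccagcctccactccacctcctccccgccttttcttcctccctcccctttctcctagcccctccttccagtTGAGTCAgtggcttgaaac
Ctnna3: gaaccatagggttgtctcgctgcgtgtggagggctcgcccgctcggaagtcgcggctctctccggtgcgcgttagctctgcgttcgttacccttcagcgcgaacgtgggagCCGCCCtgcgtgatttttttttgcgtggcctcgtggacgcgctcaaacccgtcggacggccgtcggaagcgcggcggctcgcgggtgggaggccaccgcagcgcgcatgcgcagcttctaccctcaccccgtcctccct
The Gja5 window held 1 match, a GC box, and Ctnna3 held 1, a GC box on the minus strand. A GC box is in 32.7% of the 32851 windows of the table. The Gja1 window held 2 matches, both read on the minus strand, a GATA site (in 9.99% of windows) and an AP-1 site (in 4.46%). The windows also differed in base composition, with 7 CpG in Gja5, 6 in Gja1 and 36 in Ctnna3, against a median of 6 over the table. A match is a description of the letters, not a binding site, and no match overlapped another in these windows.

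Within a library the ratio of Gja5 to Gja1 does not depend on the scaling of the libraries. The log2 ratio was -5.12, -4.94, -4.77 and -4.92 in MI and -5.56, -5.63, -5.58 and -5.51 in Sham, with no overlap. The ratio was 1.55 times higher in MI (exact 2-sided permutation p = 0.0286, the lowest possible with 4 libraries on each side; 0.0762 after Benjamini-Hochberg adjustment over 8 ratios, so that it does not pass). Per kilobase of exon, Gja5 made up 5.89 ± 0.446% of the summed signal of the 5 measured connexins in MI and 3.83 ± 0.152% in Sham. Gja1 held 80.6 ± 1.79% in MI and 81.4 ± 0.606% in Sham, and these ranges overlapped. Gja3, a connexin gene best known from the lens, held 4.66 ± 0.806% in MI and 7.12 ± 0.399% in Sham, with no overlap. The share of Gjc1, a connexin gene of the early heart and the conduction system, was 6.42 ± 0.912% in MI and 5.27 ± 0.455% in Sham, and that of Gja4, an arterial connexin gene, was 2.45 ± 0.438% in MI and 2.43 ± 0.132% in Sham; both overlapped. These shares are given without a test. Their size depends on the exon length used, the union over all transcripts of a locus, which can exceed that of the expressed transcript.

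**Figure D2:**
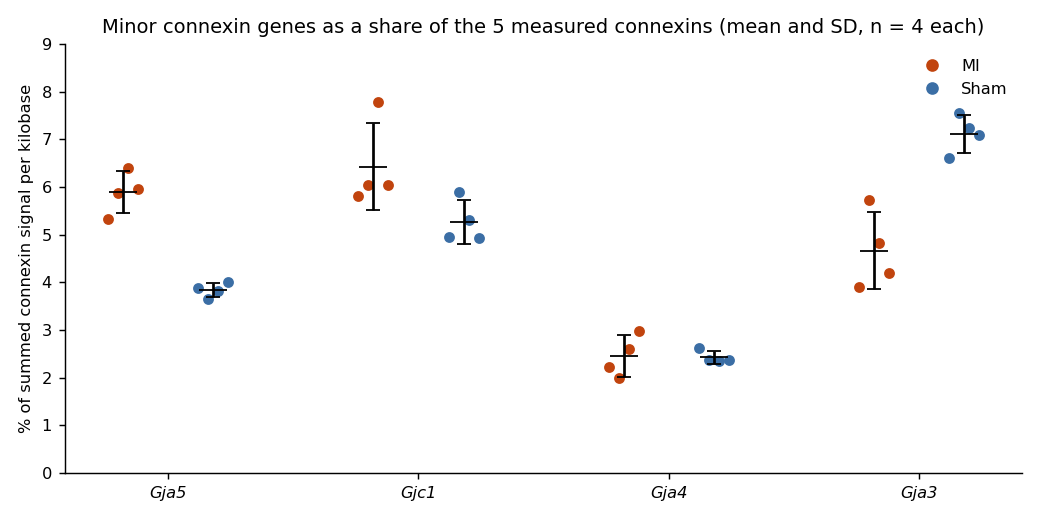
Share of each minor connexin gene (y axis, % of the summed signal per kilobase of Gja1, Gja5, Gjc1, Gja4 and Gja3) in MI (left of each pair, orange) and Sham (right, blue). Points are libraries, bars mean and SD of n = 4. All 4 MI libraries lie above Sham for Gja5 and below Sham for Gja3, and the groups overlap for Gjc1 and Gja4.

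Because Gja5 marks atrial, conduction and arterial cells, markers of these were set beside it. Of 5 measured atrial markers 4 were higher in MI, but unevenly. The atrial light chain gene Myl7 had a signal of 9.94, 4564, 1532 and 830 in MI and 11.9, 12.5, 2.27 and 118 in Sham, and Sln, the atrial sarcolipin gene, had 1.33, 1387, 375 and 236 in MI and 4.77, 0, 2.27 and 6.31 in Sham. MI replicate 1, in which Myl7 and Sln were as low as in Sham, had a Gja5 signal of 1803, within the range of the other MI libraries. Dkk3, on the same list, was instead high in all 4 MI libraries, with 7766, 6061, 5782 and 8764 in MI and 362, 380, 515 and 574 in Sham (log2 difference 3.96 ± 0.18, limma adjusted p = 5.36e-07). The summed signal of the 5 atrial markers was 10662 to 20647 in MI and 2358 to 3248 in Sham. Most of it came from Dkk3 and Nr2f2 in MI replicate 1 (7766 and 2623), and from Nr2f2 in Sham (1654 to 2089). The sum therefore says little about Myl7 and Sln and is no measure of atrial content. Without MI replicate 2, where Myl7 and Sln were highest, Gja5 stayed called. The MI libraries kept there had Myl7 at 9.94, 1532 and 830, against at most 118 in Sham. Leaving out MI replicate 2 therefore did not test the part of atrial cells. The 8 log2 differences of Gja5 with a library left out ran from 0.79 to 0.94. Of 7 arterial endothelial markers, Gja4, Efnb2, Sox17, Hey1, Bmx, Sema3g and Dll4, 0 were higher and 0 lower, and their summed signal was 16258 to 18580 in MI and 16389 to 18216 in Sham. Of 8 conduction markers 1 was higher and 2 were lower, Hcn4, a pacemaker channel gene, and Tbx3, a transcription factor of the conduction system; their summed signal was 11163 to 12381 in MI and 11470 to 14348 in Sham. Of 8 general endothelial markers 1 was lower, the receptor gene Flt1, and 0 higher. The part of atrial, conduction and arterial cells in the Gja5 difference was not tested.

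Cdh2, the gene of the cadherin of the adherens junction (chr18:16743411-16971164, minus strand, mm9), had a signal of 42469, 49697, 47432 and 44430 in MI and 48792, 53325, 50016 and 48399 in Sham. The groups overlapped, with a log2 difference of -0.13 ± 0.07 (limma adjusted p = 0.194). Ctnna3, which codes for a heart- and testis-rich alpha-catenin that also binds Pkp2 protein, lies at chr10:62892846-64481420 on the plus strand and had 9354, 11223, 10341 and 9554 in MI and 11920, 17911, 11833 and 17774 in Sham. All MI libraries lay below all Sham libraries, but Sham replicates 2 and 4 stood far above Sham replicates 1 and 3. The means were 10118 ± 851 in MI and 14860 ± 3445 in Sham, a log2 difference of -0.53 ± 0.15 (limma adjusted p = 0.0143). Without Sham replicates 2 and 4, an alternative chosen after seeing the data, it was -0.23 and did not pass (limma adjusted p = 0.0896), where 15.7% of loci were called higher and 15.9% lower.

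Ctnna1, the widely expressed alpha-catenin, was also lower in MI (log2 difference -0.25 ± 0.07, limma adjusted p = 0.0178). The log2 ratio of Ctnna3 to Cdh2 was -2.18, -2.15, -2.20 and -2.22 in MI and -2.03, -1.57, -2.08 and -1.45 in Sham, lower in MI with no overlap (2-sided exact permutation p = 0.0286, adjusted 0.0762). The MI libraries agreed closely here and the Sham libraries did not. For Ctnna3 to Ctnna1 the groups overlapped, with a log2 difference of -0.28 ± 0.15 (exact permutation p = 0.171).

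Tjp1, the gene of a zonula occludens scaffold that binds Gja1 protein at the rim of the gap junction (chr7:72441054-72516595, minus strand, mm9), had 15988, 15347, 15085 and 17455 in MI and 16818, 17418, 14397 and 19276 in Sham. The ranges overlapped, with a log2 difference of -0.08 ± 0.09 (limma adjusted p = 0.503). Its log2 ratio to Gja1 was -1.82 ± 0.12 in MI and -1.51 ± 0.25 in Sham (SD, n = 4 each; exact permutation p = 0.0571).

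Dsp, the gene of desmoplakin, which ties the desmosome to the desmin filaments (chr13:38242251-38290963, plus strand, mm9), was the most abundant of the 10. Its signal was 226030, 272319, 224483 and 224952 in MI and 257819, 347284, 258228 and 356580 in Sham. MI replicate 2 lay above Sham replicates 1 and 3, so the groups overlapped. The log2 difference was -0.35 ± 0.13 and did not pass (limma adjusted p = 0.0567), whereas it passed in DESeq2 (adjusted p = 0.0261, beside 22.6% of loci called higher and 21.5% lower), with upper-quartile scaling and without MI replicate 2, Sham replicate 1 or Sham replicate 3, where limma gave adjusted p = 0.0317, 0.0375 and 0.0344. The call of Dsp thus depends on the tool, the scaling and single libraries.

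Dsg2 codes for the desmoglein of heart muscle, a cadherin that meets its partner in the gap between cells (chr18:20711836-20765929, plus strand, mm9). Its signal was 10867, 14313, 11420 and 11809 in MI and 16769, 18584, 14870 and 22509 in Sham, with no overlap, although MI replicate 2 came close to Sham replicate 3. The means were 12102 ± 1524 in MI and 18183 ± 3258 in Sham, a log2 difference of -0.58 ± 0.13 (limma adjusted p = 0.00454). Dsc2, the desmocollin of heart muscle (chr18:20187423-20218006, minus strand, mm9), had 5674, 5883, 5542 and 5641 in MI and 7296, 7391, 5834 and 7384 in Sham. Sham replicate 3 lay within the MI range, and the other 3 Sham libraries lay above it. Its log2 difference was -0.29 ± 0.08 (limma adjusted p = 0.0191), and leaving out MI replicate 3 or Sham replicate 1, 2 or 4 ended the call (limma adjusted p = 0.0508, 0.0505, 0.0534 and 0.0554). The log2 ratio of Dsg2 to Dsc2 was 1.08 ± 0.14 in MI and 1.37 ± 0.17 in Sham (SD, n = 4 each; exact permutation p = 0.0571), so a change of one desmosomal cadherin against the other was not established.

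An unannotated locus of 2 exons runs on the opposite strand across the start of Dsg2 (chr18:20703220-20713279, minus strand, mm9), and was singled out after its values were seen. Its signal was 6.63, 6.59, 4.94 and 6.98 in MI and 25.1, 27.3, 25.0 and 42.6 in Sham, a log2 difference of -2.06 ± 0.29 (limma adjusted p = 3.41e-04). It was lower in MI without overlap, as Dsg2 was, at a level of few reads. The sources used here do not state strandedness, so where both loci overlap their reads cannot be told apart. Within 3000 bases of the 10 genes lay 12 other loci, of which 4 had a mean signal of at least 10. The others of these were Gm15328, which lies 2187 bases from Cdh2 and averaged 344 ± 15.1 in MI and 268 ± 37.4 in Sham (SD, n = 4 each; log2 difference 0.37, limma adjusted p = 0.036), Lrrtm3, a neuronal gene nested in Ctnna3 (log2 difference -0.94, limma adjusted p = 0.117), and 1 single-exon locus beside Jup.

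Pkp2, the gene of plakophilin 2, an armadillo protein of the desmosome plaque (chr16:16213389-16281972, plus strand, mm9), had 19492, 20909, 23051 and 22301 in MI and 18052, 19108, 19061 and 19724 in Sham. Only MI replicate 1 lay within the Sham range. The log2 difference of 0.17 ± 0.07 did not pass (limma adjusted p = 0.0714), and it passed in edgeR (0.20, adjusted p = 0.0235, beside 22.3% of loci called higher and 19% lower) and DESeq2 (0.19, adjusted p = 0.0237). Without MI replicate 1 it was 0.22 (limma adjusted p = 0.0297). The log2 ratio of Pkp2 to Dsp was -3.54, -3.70, -3.28 and -3.33 in MI and -3.84, -4.18, -3.76 and -4.18 in Sham, higher in MI without overlap by 0.52 ± 0.15 (exact permutation p = 0.0286, adjusted 0.0762). Jup, the gene of plakoglobin, which serves desmosomes and adherens junctions alike (chr11:100227965-100259378, minus strand, mm9), had 32560, 35624, 38671 and 40115 in MI and 40159, 37066, 39527 and 36852 in Sham. Its groups overlapped, with a log2 difference of -0.07 ± 0.08 (limma adjusted p = 0.53). Its log2 ratio to Ctnnb1, the related beta-catenin, differed by -0.10 ± 0.06 (exact permutation p = 0.171).

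From the highest to the lowest, the genes differ in level more than between the groups. Per kilobase of exon, using the exons of the deposited annotation, mean signal over the 8 libraries was 24586 normalised reads for Dsp, 7403 for Gja1, 5018 for Jup, 3931 for Cdh2, 2174 for Tjp1, 1389 for Pkp2, 1297 for Dsg2, 912 for Dsc2, 660 for Ctnna3 and 452 for Gja5. Exon length is the union over all transcripts of a locus and can exceed that of the expressed transcript, so the order depends on it. The steps from Dsp to Gja1, from Gja1 to Jup, from Cdh2 to Tjp1 and from Tjp1 to Pkp2 exceeded the spread over all libraries. The ranges of Jup and Cdh2, of Dsg2 and Dsc2 and of Dsc2 and Ctnna3 overlapped, but the first of each pair was higher within all 8 libraries. Pkp2 lay above Dsg2 in 5 of 8 libraries, namely in every MI library and in Sham replicate 3. Ctnna3 lay above Gja5 in 5 of 8, namely in every Sham library and in MI replicate 2. The order of these neighbours thus differed between the groups. In MI Pkp2 averaged 1474 per kilobase and Dsg2 1037, and in Sham Pkp2 averaged 1305 and Dsg2 1558. In MI alone Gja5 averaged 582 per kilobase and Ctnna3 535, and in Sham Gja5 averaged 322 and Ctnna3 785.

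Part of the spread among Sham libraries went with transcript length. Among protein-coding loci with a mean signal of at least 100, the median log2 deviation from the group mean of the longest loci (8498 to 108973 bases of exon, 2382 loci) minus that of the shortest (271 to 2542 bases, 2382 loci) was 0.04, 0.06, -0.05 and -0.06 in MI replicates 1 to 4 and -0.10, 0.16, -0.20 and 0.13 in Sham replicates 1 to 4. Long transcripts were thus high relative to short ones in Sham replicates 2 and 4 and low in Sham replicates 1 and 3. The longest loci themselves deviated by -0.04, 0.04, -0.05 and 0.04 in Sham replicates 1 to 4. The shortest loci deviated by 0.06, -0.12, 0.15 and -0.09. Dsp deviated by 0.20 and 0.24 in Sham replicates 2 and 4 and by -0.22 in both Sham replicates 1 and 3, and Ctnna3 by 0.30 and 0.29 against -0.29 and -0.30. Dsg2 followed this less closely, with 0.05 and 0.32 against -0.10 and -0.27, and Jup deviated the other way, with -0.05 and -0.06 against 0.07 and 0.04. The split did not go by length gene by gene. Pkp2 (14549 bases) and Cdh2 (12227 bases), longer than Dsp (11021 bases), did not show it. In Sham replicates 1 to 4 Pkp2 deviated by -0.07, 0.01, 0.01 and 0.06 and Cdh2 by -0.04, 0.09, -0.002 and -0.05. Tjp1 (7576 bases), near Jup (7488 bases) in length, deviated by -0.01, 0.04, -0.23 and 0.19. Ttn, the titin gene and the longest locus, showed the same split, with 552954, 845831, 647808 and 614657 in MI and 706034, 1092008, 701734 and 1105123 in Sham. The part of this length pattern in the lower signal of Dsp and Ctnna3 was not tested by itself; after each library was centred within 20 bins of exon length, an alternative chosen after seeing the data, Dsg2, Dsc2 and Ctnna3 remained called lower and Dsp uncalled, beside 22% of loci called higher and 20.9% lower.

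**Figure D3:**
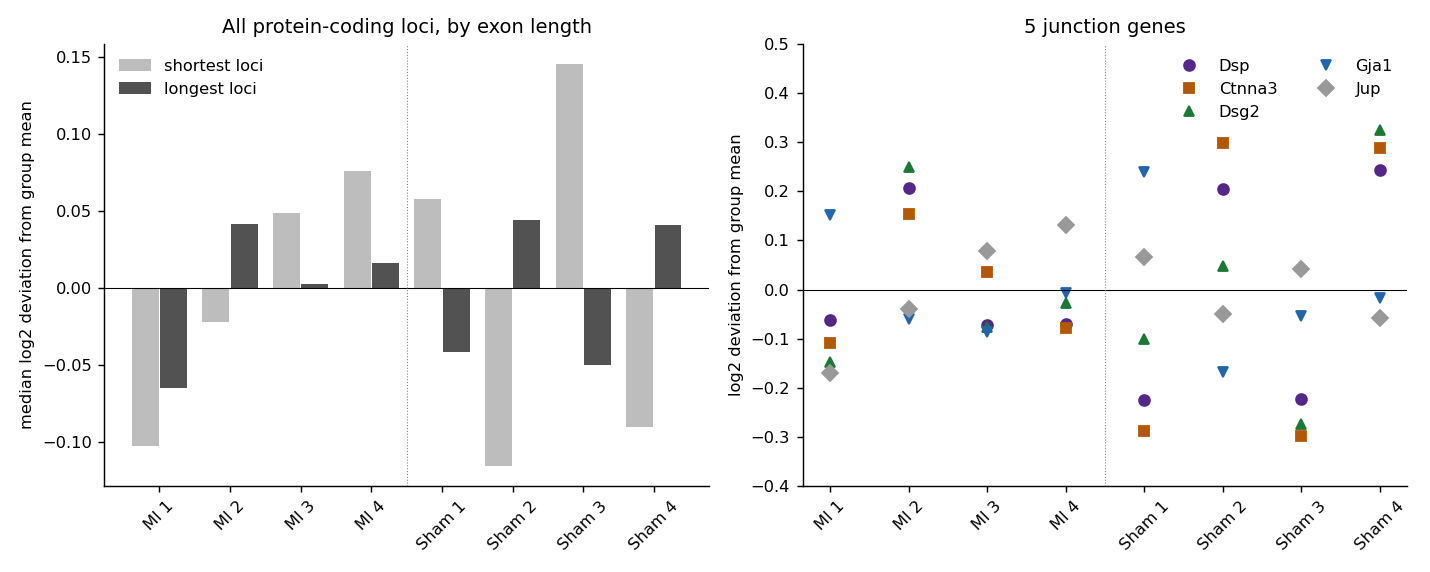
Left, median log2 deviation from the group mean (y axis) of the 2382 shortest and 2382 longest protein-coding loci in each library (x axis, MI first). Right, the deviation of 5 junction genes in the same libraries. In Sham 2 and Sham 4 the longest loci lie above the shortest, and Dsp and Ctnna3 lie at 0.20 to 0.30, against -0.22 to -0.30 in Sham 1 and 3.

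The size of the changes depends on what each library is scaled to. Scaling to the library total, in which mitochondrial and sarcomere transcripts weigh heavily, moved the log2 difference of all loci by 0.31, and 44.4% of loci were then called higher and 7.81% lower. On that scale 5 junction genes were higher in MI (Gja1 0.54, Gja5 1.17, Cdh2 0.18, Pkp2 0.48 and Jup 0.24) and 0 lower, with Dsg2 at -0.27 and Ctnna3 at -0.22. With totals outside the mitochondrial genome the shift was 0.19, 33.2% of loci were higher and 11.2% lower, and Gja1, Gja5 and Pkp2 were higher and Dsg2 lower (-0.39). The directions of Cdh2, Jup, Tjp1 and Dsc2 are therefore set by the scaling, the first 3 of them under both totals. These scalings move all loci of a library alike, so the distance of a gene from the median locus, 0.88 for Gja5 and -0.56 for Dsg2, is the same under each by construction.

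**Figure D4:**
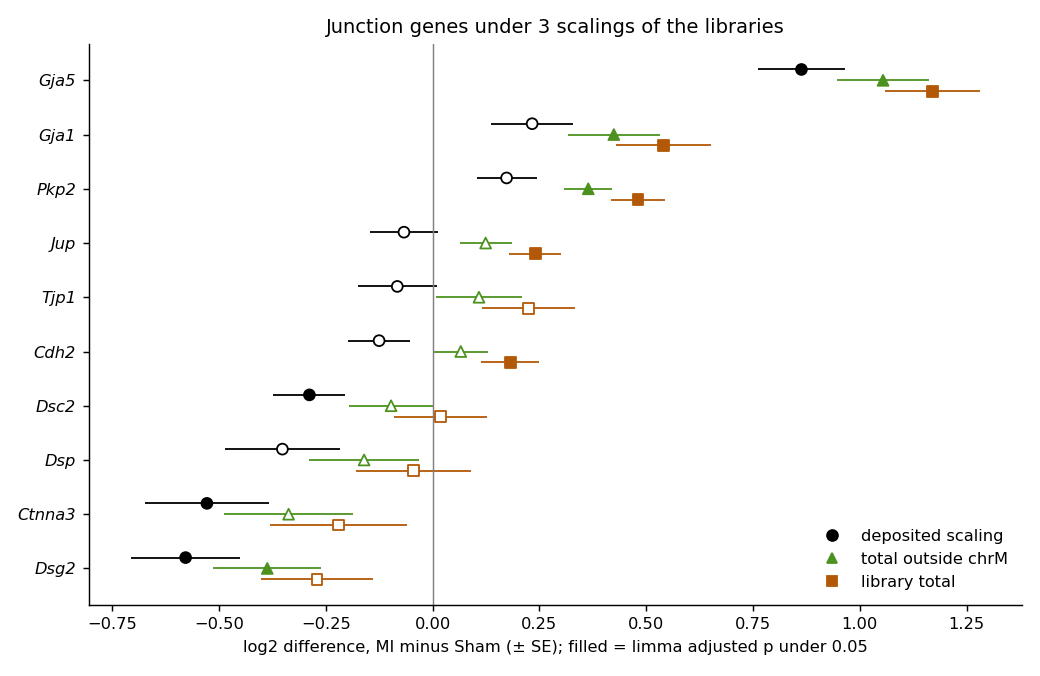
Log2 difference, MI minus Sham (x axis, ± standard error), of the 10 junction genes with the deposited scaling (circles), library totals outside the mitochondrial genome (triangles) and full library totals (squares). Filled symbols have a limma adjusted p under 0.05. The scalings shift all genes alike, Gja5 is filled under all 3, and Dsg2 is filled under 2.

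Junction genes of heart muscle were also set against other heart muscle genes in the same library, as a description without a test. The mean log2 signal of 10 cardiomyocyte markers was itself lower in MI, 18.37 ± 0.14 against 18.82 ± 0.05 in Sham (SD, n = 4 each). Relative to it, 51% of all tested loci were higher in MI without overlap and 4.17% lower, with a median difference of 0.44, so the counts of junction genes say nothing particular about them. Of the 10 genes 6 were higher without overlap: Gja5 by 1.32, Gja1 by 0.69, Pkp2 by 0.63, Jup by 0.39, Tjp1 by 0.37 and Cdh2 by 0.33 on the log2 scale. Dsp (0.10), Dsc2 (0.16), Ctnna3 (-0.08) and Dsg2 (-0.13) overlapped. Dsg2, Dsc2 and Ctnna3, which were lower in MI by the signal itself, differed from the markers by less than the pooled SD of 0.19, 0.17 and 0.25. The result turned on the markers: against Actn2 alone, the gene of sarcomeric alpha-actinin, which was not called (log2 difference -0.14), only Gja5 (1.01) and Pkp2 (0.32) of the 10 were higher without overlap, beside 27.3% of all loci higher and 11.5% lower, and Dsg2 and Ctnna3 stood at -0.43 and -0.38. Several of the 10 genes are also expressed by other cells of the heart, such as Gja1 and Cdh2 by fibroblasts, whose markers Col1a1 and Col1a2 were higher in MI by 3.22 and 2.83 on the log2 scale; the part of those cells was not tested.

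Of 77 further genes in 6 lists of junction and disc partners, 61 were tested, and 15 were higher and 12 lower in MI, with a median log2 difference of 0.08. These shares lie near those of all tested loci (20.8% higher and 20.1% lower), and the counts per list below are read against the same background. In the gap junction and pannexin list 2 of 5 were higher and 1 lower. Panx1, the gene of a membrane channel that releases nucleotides, had the largest change, with 1444, 1106, 1281 and 1637 in MI and 253, 214, 240 and 200 in Sham (log2 difference 2.58 ± 0.14, limma adjusted p = 1.28e-06). Gjc1 was higher (0.53) and Gja3 lower (-0.38). Among 11 adherens junction partners 1 was higher, the cell adhesion gene Nectin3 (0.53), and 2 were lower, Lmo7 (-0.32) and Ctnna1. Beta-catenin was not among them: Ctnnb1 averaged 64845 ± 1934 in MI and 63168 ± 552 in Sham (SD, n = 4 each).

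Of 6 tested desmosome and filament partners 2 were higher, Pkp3 (1.11, at a low level of 50.7 ± 5.38 in MI and 23.0 ± 3.79 in Sham) and Perp (0.23), a desmosome membrane gene. Ppl, the gene of periplakin, a relative of desmoplakin, was lower: its signal was 445, 793, 736 and 573 in MI and 1865, 2641, 2153 and 2822 in Sham (log2 difference -1.91 ± 0.19, limma adjusted p = 4.16e-05). Every MI library lay below every Sham library, and the change was larger than that of any of the 10 junction genes. Dsc1, Dsc3, Dsg1a, Dsg3 and Pkp1, the desmosome genes of skin, were under the filter. Des, the desmin gene, was not called (log2 difference 0.26, limma adjusted p = 0.141).

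Of 10 tight junction family genes 1 was higher, the scaffold gene Magi1 (0.46), and 2 were lower, Cldn12 (-0.47) and the junctional adhesion gene Jam2 (-0.25). Of 18 other disc genes 5 were higher and 4 lower. Xirp2, an actin-binding gene of the disc, had 255418, 235157, 347476 and 335482 in MI and 111343, 147184, 132548 and 141080 in Sham (log2 difference 1.13 ± 0.14, limma adjusted p = 1.88e-04). The sodium channel beta subunit gene Scn3b (1.04) was also higher. The 4 lower genes were Kcnj2 (-0.70), Ank2 (-0.62), Tmem65 (-0.61) and Bves (-0.28), and the groups overlapped for Kcnj2. Of 11 trafficking and regulator genes 4 were higher, among them the kinase gene Src (0.91) and Ccn3 (0.86), a secreted protein that binds Gja1 protein, and 2 were lower, among them the scaffold gene Dlg1 (-0.41). The counts per list lie on both sides, as do those of all loci.

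**Figure D5:**
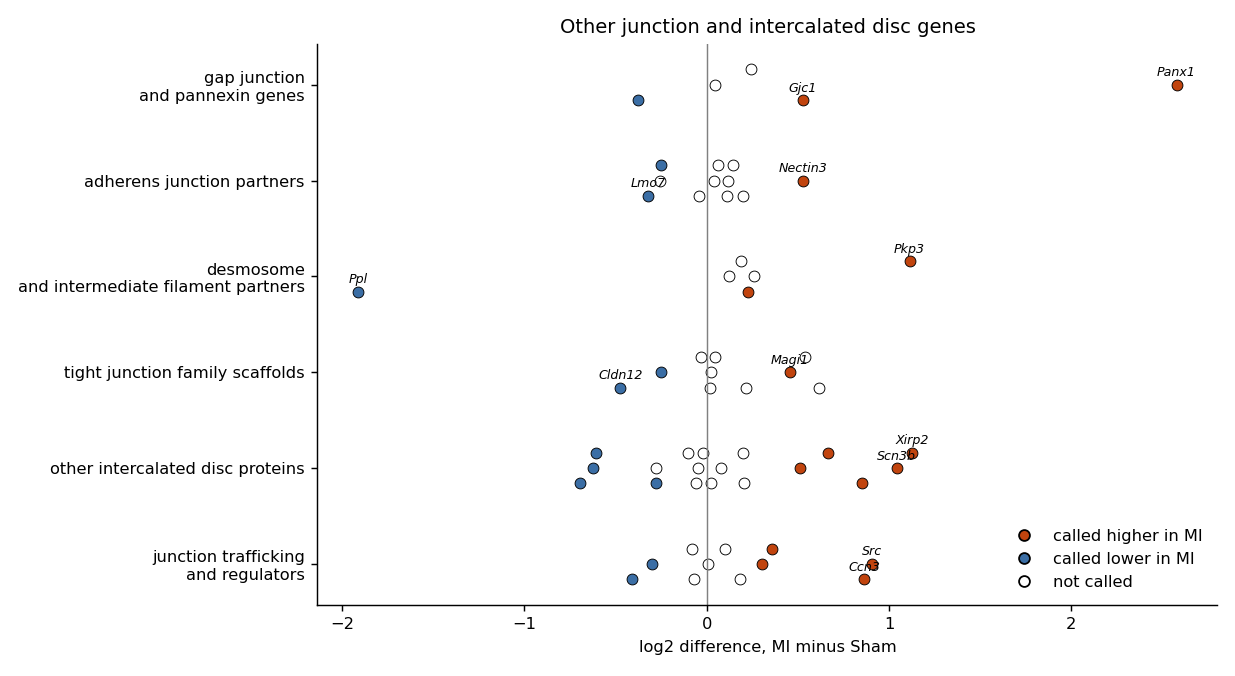
Log2 difference, MI minus Sham (x axis), of the tested genes in 6 lists of junction and intercalated disc partners (rows). Orange points were called higher and blue points lower in limma, open points were not called, and the named genes are the 2 called genes with the largest change in each list. Panx1 stands farthest to the right at 2.58 and Ppl farthest to the left at -1.91.

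The locus whose profile over the 8 libraries lay nearest to each gene, by the root mean square difference of log2 signal after centring, was Pde9a for Gja5 (0.0667), Amdhd2 for Gja1 (0.0475), Helz for Dsp (0.0432) and Sptb for Dsg2 (0.0840), among 14092 named candidates. For 5 others it was Erap1 (Cdh2), Mfsd14a (Pkp2), Stard8 (Dsc2), Prmt1 (Jup) and Acvr2a (Tjp1). In none of the 10 was the nearest locus another of these junction genes.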

How the data were processed

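Total RNA of 8 hearts was isolated with Trizol and poly(A)-selected, and an Illumina HiSeq2000 read 100 bases from each fragment end, per the labels' protocols. The submitters' processing notes name the build mm9 and, without roles or settings, DESeq, HTSeq 0.5.4p2, Cufflinks 2.0.2 and TopHat2 2.0.5. The table deposited by the authors holds a normalised signal per locus and library. All values (100%) were whole multiples of a library's smallest step within 1e-06, so reads could be rebuilt from a size factor per library, and 1 read is worth 0.663 to 1.58 normalised reads. Exon structures and coordinates of the loci, of another kind than a measurement, come from an annotation that the authors deposited with the table.

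Loci carry no gene symbols. They were named by exon and intron lengths equal to those of a GENCODE M21 gene on the same chromosome and strand, with the offset between builds within 200000 bases of that of neighbouring loci, which named 19831 loci. No coordinate was carried between builds. The test was limma-trend (limma 3.58.1, R 4.3.3), run on log2(signal + 1) of loci with a mean of at least 10, 2-sided, with Benjamini-Hochberg adjustment over all 19186 tested loci and a threshold of 0.05. The fit was tested on simulated counts with known changes in a small part of the loci and the same relative scatter at every locus. The simulation held no pattern by transcript length and far fewer changed loci than were called here, so it is no support for single calls. Gene ratios were compared by 2-sided exact permutation over samples. Alternatives were a pseudocount of 5, no filter, other scalings, edgeR 4.0.16 and DESeq2 1.42.0 on rebuilt reads, a replicate block, and leaving out each library. Further alternatives, centring within length bins and leaving out Sham replicates 2 and 4, were chosen after seeing the data. Sequences and motif matches were handled in Python 3.11.15.

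The 10 genes, the lists and the ratios were chosen with earlier results of these data known. The text names all 10 genes, of each partner list the 3 called genes with the largest change, marker genes of high level and the nearest profile of each gene. Some genes that this rule picks are left out and not reported here. Myl7, Sln, Hcn4, Tbx3, Flt1, Ctnnb1, Des and the loci near Dsg2, Cdh2, Ctnna3 and Jup were named after their values were seen. So were Kcnj2, Ank2, Tmem65 and Bves. The series describes the 4 samples of each group as biological replicates, and libraries of a group differed by more than sampling noise, with 27.2 to 115 as chi-square of their counts per degree of freedom.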

Additional observations from a re-analysis of the deposited data

Results flagged for a closer look

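In 142 groups of 4 libraries, the MI and the Sham values of 63 genes (the junction genes and the partner, marker and neighbouring genes picked for naming, not the whole lists) and of 8 gene ratios, 10 held a library that stood apart from the other 3 by more of the group's range than Dixon's 95% critical value, where chance flags about 1 in 20 groups. Among the junction genes these were Dsp, with 272319 normalised reads in MI replicate 2 beside 224483 to 226030 in the other MI libraries, and Dsc2, with 5834 in Sham replicate 3 beside 7296 to 7391 in the other Sham libraries. Among partner genes they were Scn3b, with 317 in MI replicate 3 beside 229 to 237, and Perp, with 17565 in Sham replicate 1 beside 19855 to 20023.

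Among marker genes MI replicate 3 stood apart for the mesothelial genes Upk3b (1846 beside 83.5 to 125) and Msln (1347 beside 113 to 175), and MI replicate 4 for the endothelial gene Cdh5 (43754 beside 40532 to 40924). Sham replicate 1 stood apart for the endothelial gene Pecam1 (27875 beside 22423 to 22705) and Sham replicate 4 for the atrial genes Myl4 (460 beside 173 to 184) and Myl7 (118 beside 2.27 to 12.5). No cause of these values was tested.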

How the results depend on the processing

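Over 19 alternatives Gja5 stayed called, with log2 differences between 0.77 and 1.17, and Dsg2 lost its call with library totals (-0.27) alone. Calls of junction genes, 1 higher and 3 lower as reported, became 2 higher with TMM scaling, edgeR, DESeq2 and length-bin centring, through Pkp2; TMM called 21.5% of all loci higher and 19.2% lower. Without Sham replicates 2 and 4, 1 was lower, and Tjp1 turned to 0.035. With library totals 5 were higher and 0 lower, and Cdh2 (0.18), Jup (0.24), Tjp1 (0.22) and Dsc2 (0.019) turned sign; with totals outside the mitochondrial genome 3 were higher and 1 lower, and Cdh2 (0.066), Jup (0.12) and Tjp1 (0.11) turned. Those totals gave 8525 and 6368 loci higher and 1498 and 2145 lower, and of the partner genes 42 and 31 higher and 2 and 5 lower, against 15 and 12 as reported. Relative to Actn2 alone in place of all markers, Gja1 stood at 0.38, Gja5 1.01, Cdh2 0.019, Dsp -0.21, Pkp2 0.32, Dsg2 -0.43, Dsc2 -0.14, Jup 0.077, Tjp1 0.061 and Ctnna3 -0.38. With 1 library left out, 1 to 2 junction genes were higher and 2 to 4 lower, beside 17.3 to 20.7% of all loci higher and 16.7 to 20.3% lower. The causes were not tested.

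Equal replicate numbers were not taken to pair the libraries, as no label says that they do and not every pair correlated: the correlations of same-numbered deviations were 0.15, 0.27, 0.16 and 0.00. In a hint from the data, 3 of 4 MI libraries correlated best with their own number. With the replicate block 2 junction genes were higher (Gja1 0.23, limma adjusted p = 0.0318, beside Gja5) and 4 lower (Dsp -0.35, limma adjusted p = 0.0351), with 4152 loci (21.6%) higher and 4056 (21.1%) lower. The sign-flip test of ratios over 4 pairs was not run. The ratios are limited by 4 libraries a group, as the smallest exact p of 0.0286 passes adjustment only if at least 5 of the 8 ratios reach it.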
